A study of Mus musculus with 6 samples.

Results

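Apoe and 9 other genes for lipoprotein carriers, lipid efflux pumps, a lipase, uptake receptors and a lipid-binding bridging protein were examined in sorted mouse forebrain cells labelled Ep400 cko or ctrl. The genes were Apoe, Clu, Apod, Abca1, Abcg1, Lpl, Lrp1, Vldlr, Lrp8 and Mfge8, listed by symbol. The rule that picks them uses no measured value, but they were chosen with earlier results of these data known. Each of the 10 had 1 row among the 48526 genes listed, and all 10 were among the 20101 genes tested. RNA was sequenced from cells of postnatal day 6 forebrain, freed of meninges, that had been sorted by YFP and by the DNA stain Hoechst to obtain oligodendrocyte precursor cells (OPCs). OPCs are the dividing glia that give rise to myelin-forming oligodendrocytes. There were 3 ctrl and 3 Ep400 cko samples, labelled as biological replicates. Both groups carried CNP1::Cre, a Cre recombinase driven by the promoter of the oligodendroglial gene Cnp, and a Rosa26stopflox-YFP reporter that marks cells after recombination. The Ep400 cko group carried conditional Ep400 in addition. By these genotypes the groups differed in the conditional allele and not in Cre or reporter. All animals had a mixed 129SvJ/C57Bl/6J background, on which single animals can also differ at other loci. Ep400 is the ATPase of a chromatin complex that places histone variants, and the comparison asks which transcripts differ between the groups so labelled.

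In the brain, lipid moves between cells on small particles that glia build from cholesterol, phospholipid and apolipoproteins. ABCA1 and ABCG1 pump lipid out of the cell onto apolipoprotein E, and receptors related to Lrp1 take the loaded particles up again. Lipoprotein lipase frees fatty acids from such particles, and MFGE8 binds exposed phosphatidylserine and links it to integrins on engulfing cells. Astrocytes are a main source of apolipoprotein E in healthy brain, and microglia and mural cells also make it.

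The values are those of the authors' own comparison. They consist of a mean normalised read count over all 6 libraries, a log2 fold change of Ep400 cko over ctrl, its standard error and a Wald test. No values per sample were used here, so neither the spread of single libraries nor overlap between the groups can be shown. The deposited fold changes are moderated towards 0 and so understate changes, and the direction rests on the name of the deposited comparison. The means according to the authors' deposited table sum to 80407433 normalised reads per library. Ep400 itself stood at a log2 fold change of 0.01 ± 0.17 (SE) according to the authors' deposited table (p adjusted by Benjamini-Hochberg, BH, = 0.97). A count over the whole gene does not resolve a floxed exon, so this value does not check the deletion, and the groups are called Ep400 cko and ctrl by their labels alone.

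The label of the sorted cells was checked against marker genes. The OPC list had summed means of 764299 normalised reads over 16 genes. Its most abundant gene was Ptprz1, which astrocytes and radial glia also express, at 352288, followed by Gpr17, a gene of committed precursors, at 116425, and the defining genes Pdgfra and Olig2 had means of 19690.5 and 24362.6 normalised reads according to the authors' deposited table. Markers of other cells were abundant too. The summed means were 1263819 over 20 astrocyte genes, above the OPC sum, and 710949 over 20 microglial genes, near it. Much of the OPC sum was that of Ptprz1. The means were 318172 for Slc1a3, a glutamate transporter gene of astrocytes and radial glia, and 129373 for the microglial receptor gene Csf1r according to the authors' deposited table. The libraries thus held transcripts of several cell types, and each result below applies to the sorted mixture. In such bulk samples a change in the number of cells of a type and a change in RNA per cell cannot be told apart.

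Apoe, Mfge8, Abca1 and Clu rose in the Ep400 cko samples, none of the 10 genes fell, and 6 did not pass an adjusted p of 0.05. Over all tested genes 7.64% were called higher and 4.61% lower, and 12.2% were called in either direction. Among the 10482 tested genes with a mean of at least 1000, a level that all 10 genes exceed, 8.68% were called higher, 4.76% lower and 13.4% in either direction. The median log2 fold change of the 10 genes was 0.47, and that of all tested genes was -0.00. Fold changes were positive for 8 of the 10 genes. When the Wald statistic was divided by its spread over all genes, which makes the bulk of genes the measure of noise, 0 of the 10 and 74 of all tested genes passed.

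**Figure D1:**
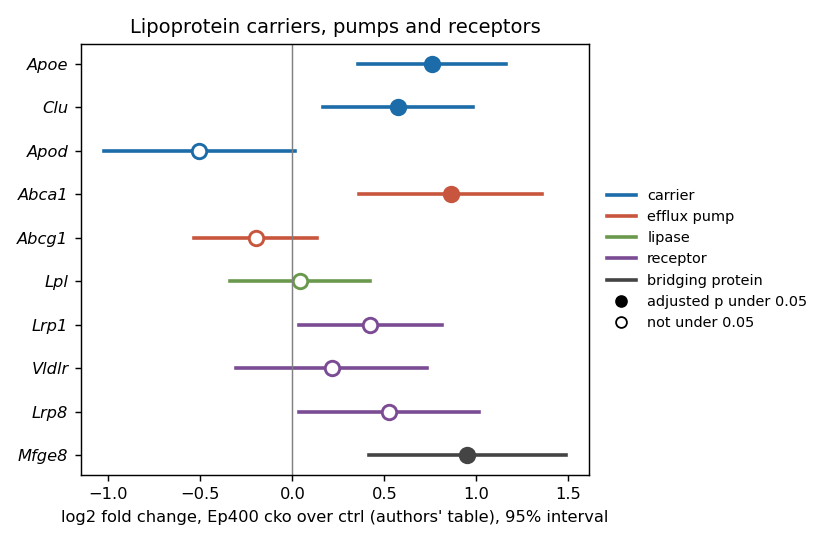
Log2 fold change of each of the 10 genes, Ep400 cko over ctrl (horizontal axis, authors' deposited values, moderated towards 0), with bars for the 95% interval; colour gives the gene's role and a filled point an adjusted p under 0.05. The intervals of Apoe, Clu, Abca1 and Mfge8 lie above 0 and their points are filled, while Apod and Abcg1 have negative values with intervals that include 0. Those of Lrp1 and Lrp8 also lie above 0, but their points are open, because the intervals are not adjusted for the number of genes.

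The carriers were described first. Apoe encodes the main apolipoprotein of brain particles and occupies positions 19696109 to 19699188 of chromosome 7, minus strand (mm10). Its mean of 428490 normalised reads according to the authors' deposited table was the highest of all 48526 genes, and made up 0.533% of all normalised reads. Apoe rose by 0.76 ± 0.20 (SE, log2; 95% interval 0.36 to 1.16) according to the authors' deposited table, a 1.69-fold change (BH-adjusted p = 0.0046). Taken with the mean, this fold change implies about 318156 normalised reads in ctrl and 538825 in Ep400 cko.

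Clu encodes clusterin, also called apolipoprotein J, a secreted chaperone found on brain lipoproteins (chromosome 14, 65968483 to 65981547, plus strand). With a mean of 55107.5 normalised reads it rose by 0.58 ± 0.21 (SE, log2; 95% interval 0.17 to 0.98) according to the authors' deposited table, or 1.49-fold. Its adjusted p of 0.048 lay just under the threshold, and with no filter on low genes Clu lost its call (BH-adjusted p = 0.068). Apod encodes apolipoprotein D, a lipocalin that carries small lipids and is unrelated in structure to apolipoprotein E (chromosome 16, 31296192 to 31314808, minus strand). Apod had a mean of 4821.1 normalised reads and stood at -0.51 ± 0.26 (SE, log2; 95% interval -1.02 to 0.01) according to the authors' deposited table, and it did not pass (BH-adjusted p = 0.21). Of the 3 carriers, 2 thus rose, and the negative value of Apod had an interval that included 0. The difference between the fold changes of the carriers was not tested.

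Of the efflux pumps, Abca1 rose and Abcg1 did not pass. Abca1 encodes the pump that loads lipid onto lipid-poor apolipoproteins (chromosome 4, 53030787 to 53159895, minus strand). Its mean was 37959.9 normalised reads, and it rose by 0.86 ± 0.25 (SE, log2; 95% interval 0.36 to 1.36; BH-adjusted p = 0.011) according to the authors' deposited table, a 1.82-fold change. When the trends over all genes in length and GC content of transcripts were taken out, Abca1 stood at 0.54 and no longer passed (BH-adjusted p = 0.16). Abcg1 encodes a half-transporter that adds lipid to particles already formed (chromosome 17, 31057675 to 31117988, plus strand). Abcg1 had a mean of 4398.0 normalised reads and stood at -0.20 ± 0.17 (SE, log2; 95% interval -0.53 to 0.13; BH-adjusted p = 0.50) according to the authors' deposited table. The difference between the fold changes of the pumps was not tested.

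Mfge8 (chromosome 7, 79133768 to 79149060, minus strand) had the largest fold change of the 10 genes. It encodes a secreted glycoprotein that bridges phosphatidylserine and integrins. At a mean of 173235 normalised reads it rose by 0.95 ± 0.27 (SE, log2; 95% interval 0.42 to 1.49; BH-adjusted p = 0.0087) according to the authors' deposited table, or 1.93-fold. Its mean ranked at position 20 among all genes. The implied levels were about 118104 normalised reads in ctrl and 228366 in Ep400 cko.

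None of the 3 uptake receptors passed. All 3 had positive values, and after removal of the length and GC trends Lrp1 stood at 0.17, Lrp8 at 0.35 and Vldlr at -0.07 (log2; BH-adjusted p = 0.67, 0.42 and 0.92). Lrp1 encodes a large endocytic receptor that takes up particles carrying apolipoprotein E (chromosome 10, 127538161 to 127621148, minus strand). It had a mean of 87875.1 normalised reads and stood at 0.42 ± 0.20 (SE, log2; 95% interval 0.03 to 0.81; BH-adjusted p = 0.15) according to the authors' deposited table. Lrp8 encodes the receptor known as ApoER2, which binds apolipoprotein E and the signalling protein reelin (chromosome 4, 107802261 to 107876840, plus strand). The authors' deposited table gave Lrp8 a mean of 13936.8 and a value of 0.53 ± 0.25 (SE, log2; 95% interval 0.03 to 1.02; BH-adjusted p = 0.16). Vldlr, whose product shares those ligands (chromosome 19, 27216484 to 27254231, plus strand), had a mean of 7872.0 and stood at 0.21 ± 0.27 (SE, log2; 95% interval -0.31 to 0.73) according to the authors' deposited table (BH-adjusted p = 0.67). The intervals of all 3 receptors allow changes of up to 1.66-fold or more, so an absence of change is not shown. Lrp1 and Lrp8 were the 2 genes with an unadjusted p under 0.05 that did not pass after adjustment.

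Lpl encodes lipoprotein lipase, which releases fatty acids from particles (chromosome 8, 68880491 to 68907448, plus strand). Its mean was 8265.5 normalised reads and its value 0.04 ± 0.19 (SE, log2; 95% interval -0.34 to 0.42; BH-adjusted p = 0.93) according to the authors' deposited table. The interval corresponds to folds between 0.79 and 1.34. Lpl had the value nearest to 0 of the 10 genes, and stood at -0.04 after removal of the length and GC trends.

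**Figure D2:**
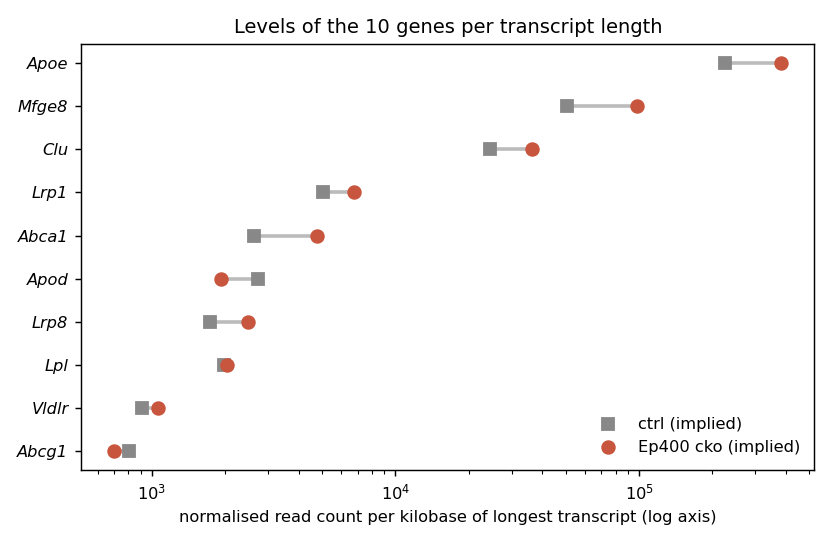
Level of each of the 10 genes as normalised read count per kilobase of the longest transcript (log axis), split into the ctrl (square) and Ep400 cko (circle) levels that the deposited mean and moderated fold change imply; no error can be drawn because values per sample were not used. Apoe lies far to the right of the rest, and only Apod and Abcg1 have the circle to the left of the square.

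Levels were compared between genes per kilobase of the longest annotated transcript. On that scale the mean level of Apoe was 304325 normalised reads per kilobase, the highest of 15998 tested protein-coding genes. Mfge8 followed at 74349.6 per kilobase and Clu at 30446.1 per kilobase. Lrp1, the most abundant receptor, had a level of 5902.4 per kilobase, 2.81 times that of Lrp8. Abca1 stood at 3699.1 per kilobase, 4.91 times the level of Abcg1, which was the lowest of the 10 genes at 754.1 per kilobase. Between these lay Apod at 2324.6, Lrp8 at 2103.0, Lpl at 2008.6 and Vldlr at 987.6 normalised reads per kilobase. Apod, Lrp8 and Lpl lay close together, and whether their order holds in single libraries cannot be shown. Together the 10 genes held 1.02% of all normalised reads, and Apoe alone held 52.1% of that share.

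The deposited standard errors are the one measure of uncertainty in these values. They belong to moderated fold changes and are not a direct measure of the spread between libraries. They ran from 0.17 for Abcg1 to 0.27 for Mfge8 on the log2 scale according to the authors' deposited table, with a median of 0.23. The median over the 10482 genes with a mean of at least 1000 was 0.17. Mfge8, Vldlr, Apod, Abca1 and Lrp8 had standard errors larger than 92.2%, 91.1%, 90.7%, 88.7% and 87.5% of those abundant genes. Abcg1 was near the middle, above 47.0% of them. Most of the 10 genes thus had larger standard errors than abundant genes in general, despite their depth.

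**Figure D3:**
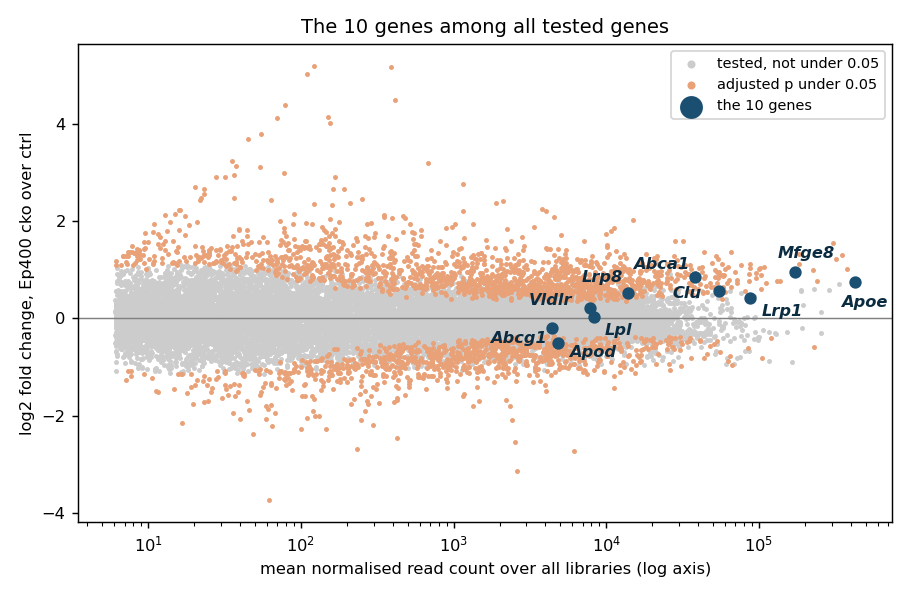
Log2 fold change, Ep400 cko over ctrl (vertical axis), against the mean normalised read count over all libraries (horizontal log axis) for every tested gene, with genes under an adjusted p of 0.05 in orange and the 10 genes in blue. Apoe is the rightmost point, and the 4 genes that rose are among the abundant ones, with means from 37959.9 to 428490.

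The regions just before the start sites of the genes that rose are shown because these genes passed in the same direction. RefSeq's promoter table (GRCm38.p6) held entries for 7 of the 10 genes, among them Apoe, Abca1 and Mfge8. The 250 bases before the start site that matches the GENCODE gene start follow, 5′ to 3′ on the gene's strand. Capitals mark matches on either strand to 6 motifs. These were the nuclear receptor half-site AGGTCA, its direct repeat (AGGTCA, any 4 bases, AGGTCA), a relaxed form (GGTTA, any 5 bases, GGTCA) of the element through which LXR acts on human ABCA1, the E-box CACGTG, the GC box GGGCGG and the TATA box TATAAA. The relaxed form was chosen with the Abca1 sequence in view.
Apoe, chr7:19699189-19699438, minus strand: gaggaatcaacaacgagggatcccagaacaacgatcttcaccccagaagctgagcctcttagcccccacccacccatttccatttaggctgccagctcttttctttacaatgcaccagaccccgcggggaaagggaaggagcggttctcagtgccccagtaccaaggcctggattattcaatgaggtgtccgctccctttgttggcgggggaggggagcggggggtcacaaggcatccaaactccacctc
Abca1, chr4:53159896-53160145, minus strand: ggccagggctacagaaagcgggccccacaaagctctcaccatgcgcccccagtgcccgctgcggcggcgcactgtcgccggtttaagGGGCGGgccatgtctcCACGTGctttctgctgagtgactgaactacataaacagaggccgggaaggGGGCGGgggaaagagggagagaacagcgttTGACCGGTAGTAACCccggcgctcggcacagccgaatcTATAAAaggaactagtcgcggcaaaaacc
Mfge8, chr7:79149061-79149310, minus strand: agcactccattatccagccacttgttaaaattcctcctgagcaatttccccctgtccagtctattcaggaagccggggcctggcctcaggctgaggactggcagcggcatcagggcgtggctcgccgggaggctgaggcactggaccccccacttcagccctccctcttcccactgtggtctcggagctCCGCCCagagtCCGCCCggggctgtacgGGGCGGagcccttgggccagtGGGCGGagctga

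The window of Apoe shown held none of the 6 motifs. Apoe had 3 entries, and the window before another start site held TATA box matches from positions -100 and -96 of that site. The window of Abca1 held the relaxed LXR element from position -67, counted from the start site, a TATA box from position -29, an E-box from position -147 and 2 GC boxes. The relaxed element was present in 0.0461% of 32536 distinct promoter windows of the same length. The full direct repeat was in 0.0154% of them, the half-site in 14.0%, the E-box in 6.04%, the TATA box in 12.3% and the GC box in 33.0%. Because the relaxed form was chosen with the Abca1 sequence in view, its share does not measure how unusual the match in Abca1 is. Mfge8 had 4 GC boxes and no match to the other motifs. GC content was 57.2% for Apoe, 61.6% for Abca1 and 65.2% for Mfge8, against a median of 52.4% over all windows. In the window nearest the gene start, Lrp1 had 67.2%, Lrp8 62.4%, Vldlr 41.6% and Apod 36.4%, and none of these genes passed. The Lrp1 window held a GC box as well, so neither trait was particular to the genes that rose. Clu, Abcg1 and Lpl had no entry. These matches describe letters in short windows and do not show binding.

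The genes next to those that rose were then read, since position had not been used to choose the genes. Apoe lies in a cluster of apolipoprotein genes. Its nearest tested neighbours were Tomm40, 2125 bases away and encoding a mitochondrial import pore, and Apoc1, 3449 bases away and encoding apolipoprotein C-I. Tomm40 stood at -0.17 ± 0.13 (SE, log2; BH-adjusted p = 0.46) and Apoc1 at 0.10 ± 0.22 (BH-adjusted p = 0.83) according to the authors' deposited table. Beyond them, the membrane protein gene Clptm1 stood at 0.32 ± 0.16 and the adhesion gene Nectin2 at -0.20 ± 0.13 according to the authors' deposited table (BH-adjusted p = 0.18 and 0.31). Apoc1 had a mean of 625.5 normalised reads according to the authors' deposited table, and Apoc2 was listed at 0. Taking the 2 nearest tested genes on each side of Apoe, Clu, Abca1 and Mfge8, none of 16 neighbours passed. Their median log2 fold change was 0.03, and 12.2% of all tested genes were called in either direction. Some of the 16 were low, such as Gulo and Adam2 near Clu, with means of 20.6 and 7.8 according to the authors' deposited table. Around all 10 genes, 1 of 40 neighbours was higher and 2 were lower, beside 7.64% and 4.61% of all tested genes. They were Rfx3 near Vldlr, at 0.66 ± 0.18, Rsph1 near Abcg1, at -1.08 ± 0.30, and Dmrtb1 near Lrp8, at -0.996 ± 0.213 according to the authors' deposited table. These 3, Gulo and Adam2 were named after their values were seen. Whether the neighbours differ from other tested genes was not tested.

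The rest of the pathway was described with 7 lists of 125 genes that do not include the 10 genes. Of these, 115 were tested, 22 rose, 3 fell and 90 did not pass. That is 19.1% higher and 2.61% lower, beside 7.64% and 4.61% of all tested genes. The median log2 fold change of the 115 genes was 0.10. When the length and GC trends were taken out, 13 were higher and 4 lower.

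**Figure D4:**
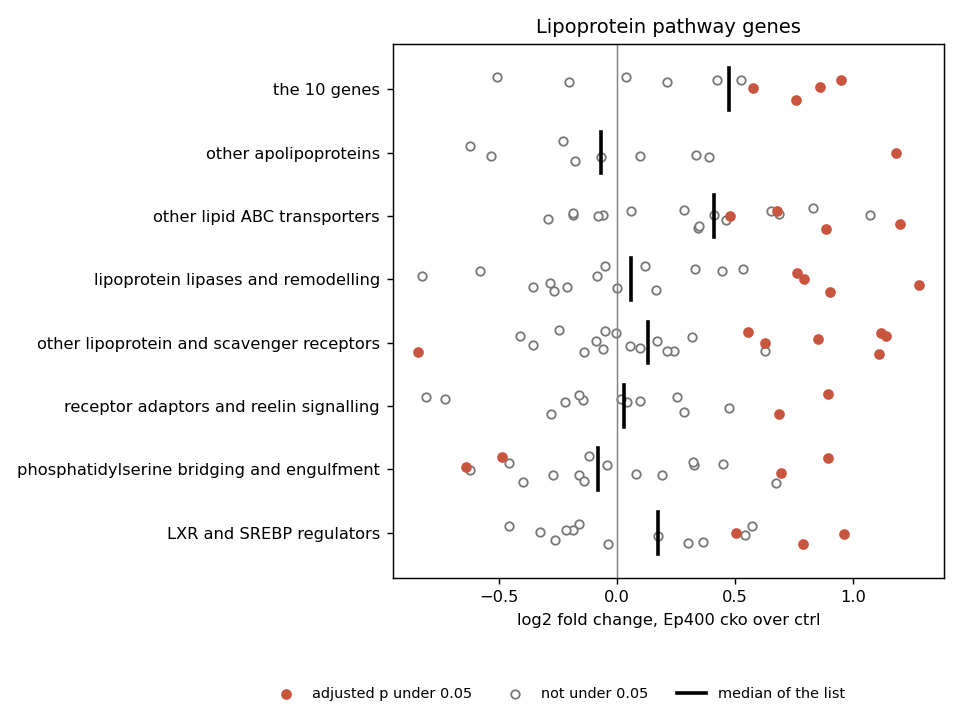
Log2 fold change, Ep400 cko over ctrl, of each tested gene of the 10 genes (top) and of the 7 other pathway lists, with filled points for an adjusted p under 0.05 and a black bar at each list's median; the vertical spread within a list has no meaning. Filled points lie to the right of 0 except for Msr1, Gas6 and Pear1.

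Other apolipoprotein genes were low. Of 19 listed, 3 had a mean of 0 and 7 more lay under the level tested, which left 9. Apol8, of the apolipoprotein L family, rose and the other 8 did not pass, with a list median of -0.07. Apol8 had a mean of only 27.8 normalised reads and a log2 fold change of 1.18 ± 0.42 (SE; BH-adjusted p = 0.040) according to the authors' deposited table. It lost its call when low genes were not filtered out (BH-adjusted p = 0.057). Apob, named after its values were seen and encoding a structural apolipoprotein of large particles, did not pass but was called lower once the length and GC trends were taken out (-0.97, log2; BH-adjusted p = 0.0032). Apool, a mitochondrial protein gene and the most abundant of the list at 926.7, stood at -0.07 ± 0.21 according to the authors' deposited table (BH-adjusted p = 0.88).

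Of 19 other lipid transporters of the ABC family, 4 rose, none fell and 15 did not pass, with a list median of 0.41. Abcg4, a relative of Abcg1 found mainly in brain, rose by 0.48 ± 0.15 (SE, log2) and Abcd2, a peroxisomal fatty acid importer, by 0.89 ± 0.25 according to the authors' deposited table (BH-adjusted p = 0.020 and 0.0070). Abca13 rose by 1.20 ± 0.39 and Abca8b by 0.68 ± 0.25 according to the authors' deposited table (BH-adjusted p = 0.024 and 0.049). Both lost their call after removal of the length and GC trends (BH-adjusted p = 0.53 and 0.28), which left 2 of the list called, and Abca8b also when low genes were not filtered out (BH-adjusted p = 0.069). The most abundant, the peroxisomal transporter gene Abcd3, had a mean of 16241.7 and stood at 0.41 ± 0.21 according to the authors' deposited table (BH-adjusted p = 0.21).

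Of 18 genes for lipases, particle remodelling and cholesterol handling, 4 rose, none fell and 14 did not pass, with a median of 0.06. Pla2g7, which encodes a lipoprotein-associated phospholipase, was the most abundant at 52305.8 normalised reads and rose by 1.28 ± 0.31 (SE, log2; BH-adjusted p = 0.0013) according to the authors' deposited table. Lcat, whose product esterifies cholesterol on particles and is activated by apolipoproteins, rose by 0.90 ± 0.25 according to the authors' deposited table (BH-adjusted p = 0.0053). Soat1, which esterifies cholesterol inside the cell, rose by 0.79 ± 0.22, and Npc1, which exports cholesterol from lysosomes, by 0.76 ± 0.21 according to the authors' deposited table (BH-adjusted p = 0.0054 and 0.0058). Soat1 no longer passed after removal of the length and GC trends (BH-adjusted p = 0.079).

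Of 22 other lipoprotein receptor, sortilin and scavenger receptor genes, 6 rose, 1 fell and 15 did not pass, with a median of 0.13. Sorcs2 and Sorl1, of the sortilin family of sorting receptors, rose by 1.14 ± 0.27 and 0.85 ± 0.25 (SE, log2) according to the authors' deposited table (BH-adjusted p = 0.0012 and 0.012). Lrp1b and Lrp2, large receptors related to Lrp1, rose by 1.11 ± 0.28 and 1.12 ± 0.28 according to the authors' deposited table (BH-adjusted p = 0.0017 and 0.0021). After removal of the length and GC trends, 2 of the list were called higher, and Lrp1b, Lrp2 and Sorl1 were not among them (BH-adjusted p = 0.17, 0.13 and 0.14). Lrp4 and Lrp11 rose by 0.63 ± 0.22 and 0.55 ± 0.20, and the macrophage scavenger receptor gene Msr1 fell by 0.84 ± 0.25 according to the authors' deposited table (BH-adjusted p = 0.043, 0.045 and 0.013). Lrp4 and Lrp11 lost their calls when low genes were not filtered out (BH-adjusted p = 0.061 and 0.064), and Lrp4 also after removal of the length and GC trends (BH-adjusted p = 0.14). Lrp4, Lrp11 and Msr1 were named after their values were seen. Scarb2, a lysosomal membrane protein gene and the most abundant, stood at -0.05 ± 0.17 according to the authors' deposited table (BH-adjusted p = 0.89).

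Of 14 genes for receptor adaptors and reelin signalling, 2 rose, none fell and 12 did not pass, with a median of 0.03. Reln, which encodes the ligand reelin of Vldlr and Lrp8, rose by 0.89 ± 0.20 (SE, log2; BH-adjusted p = 0.00044) according to the authors' deposited table. Dab1, the intracellular adaptor of those receptors, rose by 0.69 ± 0.21 according to the authors' deposited table (BH-adjusted p = 0.015), and not after removal of the length and GC trends (BH-adjusted p = 0.055). The kinase gene Fyn, the most abundant of the list, stood at -0.81 ± 0.34 according to the authors' deposited table (BH-adjusted p = 0.10).

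Of 18 genes for phosphatidylserine bridging and engulfment, 2 rose, 2 fell and 14 did not pass, with a median of -0.08. That is 11.1% in each direction, beside 7.64% higher and 4.61% lower over all tested genes. The engulfment receptor genes Adgrb1 and Megf10 rose by 0.70 ± 0.16 and 0.89 ± 0.25 (SE, log2) according to the authors' deposited table (BH-adjusted p = 0.00063 and 0.0079). Gas6, which like Mfge8 encodes a phosphatidylserine bridge but acts on receptors of the TAM family, fell by 0.49 ± 0.16 according to the authors' deposited table (BH-adjusted p = 0.026). Pear1, a relative of Megf10, fell by 0.64 ± 0.21 according to the authors' deposited table (BH-adjusted p = 0.030). Megf10 and Gas6 lost their calls after removal of the length and GC trends (BH-adjusted p = 0.062 and 0.067), and the engulfment adaptor gene Elmo1, named after its values were seen, gained one at -0.75 (BH-adjusted p = 0.039), so 1 was higher and 2 were lower. Rac1, a small GTPase gene and the most abundant of the list, stood at -0.40 ± 0.18 according to the authors' deposited table (BH-adjusted p = 0.14).

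Among 15 genes of LXR and SREBP regulation, 3 rose, none fell and 12 did not pass, with a median of 0.18. LXRs are the sterol-sensing nuclear receptors that turn on Abca1, Abcg1, Apoe and Srebf1 in many cells, acting with RXR partners. Their genes Nr1h2 and Nr1h3, named after their values were seen, stood at -0.04 ± 0.13 and -0.26 ± 0.21 (SE, log2) according to the authors' deposited table (BH-adjusted p = 0.90 and 0.48). Srebf1, which encodes the lipid synthesis factor SREBP1, rose by 0.96 ± 0.24 according to the authors' deposited table (BH-adjusted p = 0.0017). The RXR gene Rxrg rose by 0.79 ± 0.28 and Srebf2, the regulator of cholesterol synthesis, by 0.51 ± 0.18 according to the authors' deposited table (BH-adjusted p = 0.041 and 0.041). Rxrg and Srebf2 lost their calls with no filter on low genes (BH-adjusted p = 0.058 and 0.058).

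Markers of other cell types moved alongside these genes. Among 20 genes typical of astrocytes, 14 rose, 6 did not pass and none fell, with a median log2 fold change of 1.00. Their implied summed level was 812800 normalised reads in ctrl and 1714838 in Ep400 cko. For comparison, the 10 lipoprotein genes had implied sums of 619790 and 1024132. The astrocyte genes Agt and Fgfr3 rose by 2.03 ± 0.25 and 1.11 ± 0.26 (SE, log2), and Slc1a3 by 1.22 ± 0.31, according to the authors' deposited table (BH-adjusted p = 4.6e-13, 0.00091 and 0.0024). Fold changes of Apoe, Clu, Abca1 and Mfge8 thus lay between 0.58 and 0.95, below the median of the astrocyte markers. The part of astrocyte RNA in the result for the 4 genes was not tested.

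Among 20 microglial genes, 3 fell, 17 did not pass and none rose, with a median of -0.41 and implied sums of 817717 in ctrl and 604181 in Ep400 cko. C1qa and P2ry12 fell by 0.68 ± 0.19 and 0.59 ± 0.18 (SE, log2) according to the authors' deposited table (BH-adjusted p = 0.0076 and 0.014), and Csf1r stood at -0.32 ± 0.19 (BH-adjusted p = 0.28). Of 20 mural and fibroblast markers 15 fell, none rose and 5 did not pass, with a median of -0.92 and implied sums of 440310 and 274974. Tagln and Cnn1 fell by 1.50 ± 0.27 and 2.04 ± 0.37 according to the authors' deposited table (BH-adjusted p = 4.6e-06 and 4.7e-06), and Rgs5, the most abundant, stood at -0.68 ± 0.25 (BH-adjusted p = 0.058). Apoe is expressed by both of these cell types as well as by astrocytes, and the medians of both lists were negative; their part in its value was not tested. None of the astrocyte, microglia or mural markers was at 0.

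**Figure D5:**
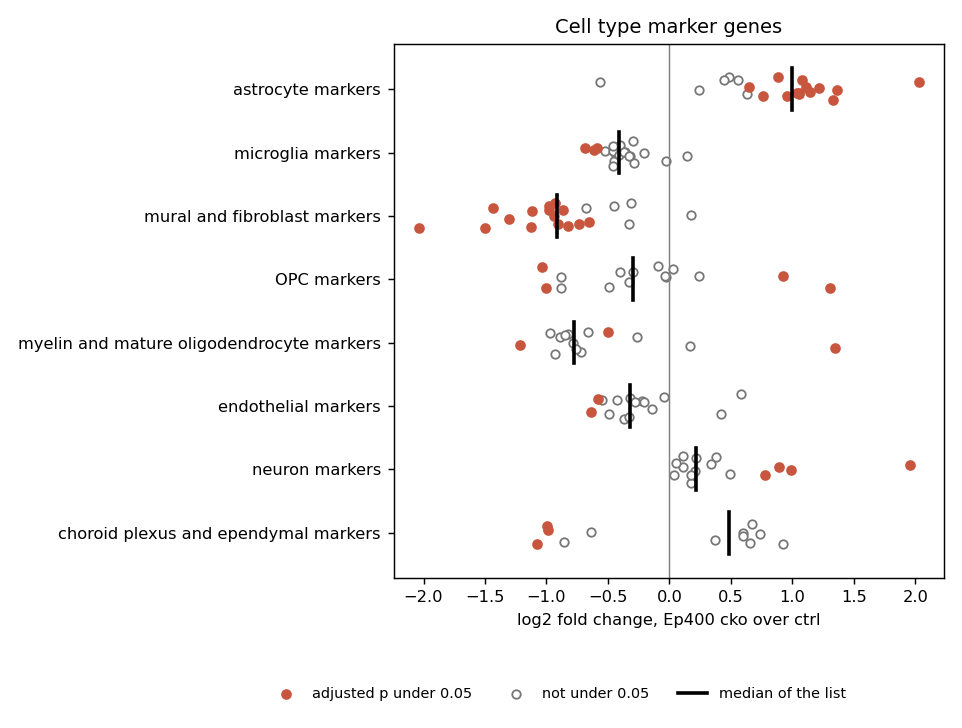
Log2 fold change, Ep400 cko over ctrl, of each tested gene in 8 lists of cell type markers, with filled points for an adjusted p under 0.05 and a black bar at each list's median; the vertical spread within a list has no meaning. The astrocyte median is at 1.00, the microglia median at -0.41 and the mural and fibroblast median at -0.92.

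The lists of the oligodendrocyte lineage and of other cells differed in sign. Values were negative for 11 of 15 tested OPC genes, 12 of 14 tested myelin genes and 13 of 15 endothelial genes. All 15 neuronal genes had positive values. Neu4 of the OPC list and Mobp and Tspan2 of the myelin list stood at -0.85, -0.72 and -1.29 (log2). These had no p-value, were not counted as tested and were named after their values were seen. Among 15 tested genes of OPCs, 2 rose, 2 fell and 11 were not called, with a median of -0.30. The receptor phosphatase gene Ptprz1, the most abundant, rose by 1.30 ± 0.31 (SE, log2; BH-adjusted p = 0.0012) and C1ql1 fell by 1.03 ± 0.29 (BH-adjusted p = 0.0077) according to the authors' deposited table. Of 14 tested myelin and mature oligodendrocyte markers 1 rose, 2 fell and 11 did not pass, with a median of -0.77. Aspa rose by 1.35 ± 0.33 and Mog fell by 1.22 ± 0.42 according to the authors' deposited table (BH-adjusted p = 0.0016 and 0.034), and Mbp, the most abundant, stood at -0.89 ± 0.41 (BH-adjusted p = 0.14). After removal of the length and GC trends, C1ql1 and Mog lost their calls (BH-adjusted p = 0.054 and 0.067), as did Cspg5 of the OPC list and Trf of the myelin list (BH-adjusted p = 0.056 and 0.075), both named after their values were seen. This left 1 OPC gene higher and 1 lower, and 0 myelin genes lower.

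Of 15 endothelial markers 2 fell, none rose and 13 did not pass, with a median of -0.32. Esam and Eng fell by 0.64 ± 0.21 and 0.58 ± 0.20 (SE, log2) according to the authors' deposited table (BH-adjusted p = 0.029 and 0.030), and Slc2a1 stood at 0.42 ± 0.20 (BH-adjusted p = 0.16). Both lost their calls after removal of the length and GC trends (BH-adjusted p = 0.077 and 0.060). Among 15 neuronal genes, 4 rose, 11 did not pass and none fell, with a median of 0.22. After removal of the length and GC trends 2 were called, and Syt1 and Grin2b, named after their values were seen, were not (BH-adjusted p = 0.073 and 0.23). They included Slc17a7 at 1.96 ± 0.37 and Reln, while Map2, the most abundant, stood at 0.21 ± 0.12 according to the authors' deposited table (BH-adjusted p = 1.2e-05, 0.00044 and 0.29). Reln is counted in the neuron list and in the reelin list. Of 12 choroid plexus and ependymal markers 3 fell, none rose and 9 did not pass, with a median of 0.49. The list joins 2 cell types whose values lay mostly on opposite sides of 0, so its median describes neither. Its 7 positive values were those of choroid plexus genes. The 5 negative ones were those of Prlr and of the cilia genes Foxj1, Rsph1, Ccdc153 and Tmem212. Prlr, Ccdc153 and Tmem212 were named after their values were seen. Ccdc153 lost its call with no filter on low genes and after removal of the length and GC trends (BH-adjusted p = 0.062 and 0.0997). After that removal Prlr, with a mean of only 21.6 normalised reads, was called lower (-1.24, log2; BH-adjusted p = 0.027). The cilia genes Foxj1 and Rsph1 fell by 0.99 ± 0.27 and 1.08 ± 0.30, and the carrier gene Ttr stood at 0.92 ± 0.41 according to the authors' deposited table (BH-adjusted p = 0.0045, 0.0061 and 0.13).

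Overlapping genes could share reads with 3 of the 10 genes. They were an antisense gene within Lrp1, 2 antisense genes within Lrp8 and an rRNA gene within Abcg1. The sources used here do not say whether reads were counted by strand, and the rRNA gene lies on the same strand as Abcg1. Each overlapping gene had a mean of at most 3.41 normalised reads according to the authors' deposited table. These means are small beside the 4398.0 to 87875.1 normalised reads of the 3 genes.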

How the data were processed

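RNA of sorted forebrain cells was measured in 3 ctrl and 3 Ep400 cko samples, grouped by their titles. Total RNA went into a kit for stranded mRNA libraries, per the labels. The submitters' processing notes name mm10, STAR 2.5.1 (an aligner), HTSeq (a counter) and DESeq2 (a count test), with no order. Genes are those of Ensembl 85, per the file headers.

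Columns of single samples in the deposited table number 0. The authors' mean signal is a normalised read count over all libraries. Its header says raw counts, but the means do not come to whole reads over 6 samples, so the values were taken as scaled between libraries. The authors' fold change and standard error are log2 values, moderated towards 0. Their ratio is the deposited Wald score, from which come the deposited p-value and, by Benjamini-Hochberg (BH), the adjusted one. Of 48526 genes, 19785 had a mean of 0, 118 more had no p-value and 8522 had no adjusted p-value because of a low mean, which left 20101 tested. Each p-value sets the fold change against its standard error over these samples. Depth per sample was not analysed here.

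The main result is the authors' own test, called where the adjusted p is under 0.05. The 10 genes and all lists were chosen with earlier results of these data known. Some genes of the lists are not reported here and were left out of the counts. Intervals are 95% normal intervals from the deposited standard error. Implied group levels split the mean by the fold change, with equal groups. Identifiers were matched to GENCODE M21 (GRCm38) for 48144 genes, which gave coordinates and, from the longest transcript, length and GC content. A symbol with more than 1 identifier was read from the row with the highest mean. Named genes are the 10 genes, Ep400, up to 4 passing genes of each pathway list and 2 of each marker list by smallest adjusted p, the most abundant of each list, and the neighbours of Apoe. With 1 comparison, no gene can be named as most alike in pattern. Alternatives were computed with Python 3.11.15, scipy 1.17.1 and pandas 2.3.3. The trend removal and adjustment were tested on simulated data with shifts larger than the Wald statistics of the 10 genes. That test does not show how reliable calls of their strength are.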

Additional observations from a re-analysis of the deposited data

How the results depend on the processing

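Of the 4 genes called higher, 4 passed with genes of a mean of at least 80 and with fold changes centred on the median (itself -0.00, log2), and 3 with no filter on low genes and with length and GC trends removed. At an adjusted p under 0.01, Apoe and Mfge8 passed, which is 2 genes. With the Wald statistic divided by its spread over all genes (a scale of 1.68, so that the bulk of genes sets the noise), 0 passed and 74 of all 20101 genes did, against 2462 before. The adjusted p of Apoe ranged from 0.00059 to 0.0066 over the other settings, and rose to 0.60 with this rescaling. Pathway genes called higher went from 22 to 13 with length and GC trends removed, 12 at 0.01 and 0 with rescaling, and those called lower from 3 to 0 in both of the latter. Marker genes called higher went from 21 to 1 with rescaling, and those lower from 27 to 13 at 0.01 and 0 with rescaling. Lpl and Vldlr, which did not pass, changed sign with length and GC trends removed (-0.0388 and -0.0662), as did Ep400 (-0.17). Beyond the shift in fold change or threshold that each setting makes, the cause was not tested.

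No paired analysis was possible because the deposited columns carry no values per sample. For the same reason, leaving out replicates and other count models were not run, and depth per library sets a limit that cannot be given.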
